A study of Arabidopsis thaliana with 18 samples.

Results

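Imbibed seeds of the mutant mpk7_ko3 were compared with imbibed seeds of the wild type Col-0 across all genes of Arabidopsis thaliana. The 6 libraries compared, 3 of mpk7_ko3 and 3 of Col-0, were taken by their sample labels from the 18 libraries of the series. The series measured transcripts by RNA sequencing of whole seeds of Col-0, mkk3-1 and mpk7_ko3, either dry or after 6 h of imbibition, which made 6 groups of 3 libraries. All seeds were freshly harvested, and imbibition was on wet filter paper. The Col-0 libraries carried the label of a wild type of the Col-0 ecotype, and the mutant libraries carried the labels of an MPK7 knock-out (mpk7_ko3) and an MKK3 knock-out (mkk3-1). The labels name the line but give neither the kind of mutation nor the number of independent lines. They also do not say whether replicates came from separate seed batches. The p-values thus rest on a spread between replicates that may be technical. This spread was estimated from all 18 libraries, not from the 6 compared alone.

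MPK7 is a mitogen-activated protein kinase of the C group, and MKK3 is the kinase that phosphorylates and activates the kinases of this group. MAP kinase cascades pass a signal from an upstream kinase to a MAP kinase kinase and then to a MAP kinase, and the MKK3 cascade is known from Arabidopsis, barley and wheat for its effect on seed dormancy. A freshly harvested seed can be dormant, a state in which abscisic acid and the protein DOG1 hold back germination, whereas gibberellin, expansins and other cell wall enzymes accompany its start.

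The 6 libraries held 19766821 to 21036275 counts, and 17758 of the 32833 genes in the count table passed the filter on low counts and were tested. Levels are given as CPM, counts scaled to the size of the library, which do not allow levels of different genes to be compared, since they are not divided by gene length. Differences are log2 fold changes, mpk7_ko3 over Col-0, with a standard error (SE), from edgeR's quasi-likelihood test with Benjamini-Hochberg adjustment over all genes tested and n = 3 libraries per group. A gene is said to have risen or fallen where its adjusted p was below 0.05. On the first principal component of the 6 libraries, which held 35.7% of the variance, the genotypes lay apart, and on the second, with 24.6%, replicate 3 of mpk7_ko3 stood apart from the other 5 libraries at -37.3. Markers of the seed (storage proteins, oleosins and EM proteins) summed to 37492 to 40288 CPM in Col-0 and 32988 to 46354 CPM in mpk7_ko3, with 8 of 8 tested. Endosperm markers summed to 5861 to 7673 CPM against 6674 to 9819 CPM, with 8 of 13 tested. ZOU, PHE1 and FIS2 had no read. Most of the endosperm sum was EPR1, whose levels are given below, so the sum does not describe the list. Of the 8 tested, 5 had a negative log2 fold change, with a median of -0.0628, and MAN7 alone was called, lower. Seed coat markers summed to 19.8 to 21.6 CPM against 19.4 to 20.9 CPM, with 10 of 18 tested. TT12, MYB5 and MYB61 had no read. Markers of green tissue summed to 118 to 146 CPM in Col-0 and to 72.1 to 86.6 CPM in mpk7_ko3, with 12 of 16 tested. RBCS1A, which made up most of this sum, was the 1 called and fell. Of the 12, 9 had a negative log2 fold change, with a median of -0.44. Root and floral markers summed to 6.52 to 8.35 CPM against 4.19 to 5.24 CPM, with 1 of 6 tested and EXPA7 and COBL9 without a read. The part that these marker levels have in the results below was not tested. In such whole-seed samples, fewer cells of a type and less RNA per cell cannot be told apart.

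The targeted gene was lower in every mutant library. MPK7 (AT2G18170, TAIR10 chr2:7907774-7910040, minus strand) had 32.3, 37.3 and 36 CPM in imbibed Col-0 and 11.3, 13.1 and 14.3 CPM in imbibed mpk7_ko3, a log2 fold change of -1.45 (SE 0.0917, adjusted p = 1.13e-08). The groups did not overlap, and the mutant kept 0.367 of the Col-0 level, so that reads of the gene remained. In dry seeds the same gene had 44.2, 38.7 and 40.9 CPM in Col-0 and 15.2, 14.3 and 14.7 CPM in mpk7_ko3, a log2 fold change of -1.49 (SE 0.0951, adjusted p = 1.32e-08). In imbibed mkk3-1 it had 33.8, 35.8 and 39.1 CPM, within the range of Col-0 but for its highest library. Between imbibed mpk7_ko3 and Col-0, 5.12% of all genes were called higher and 4.72% lower. Of 11 other genes tested within 50 kb of MPK7, bZIP2 and TLP2 were called higher and 0 lower. These 2 were singled out after their values were seen. bZIP2, a basic leucine zipper transcription factor, had 25.9, 21.4 and 22.8 CPM against 40.7, 30.5 and 30.7 CPM (log2 fold change 0.54, SE 0.159, adjusted p = 0.0353, edgeR). TLP2, a tubby-like protein, had 44.6, 44.6 and 48.6 CPM against 65.0, 55.5 and 72.1 CPM (0.48, SE 0.0786, adjusted p = 0.000624, edgeR).

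Across all genes, 1748 were called between imbibed mpk7_ko3 and imbibed Col-0, 9.84% of those tested. Of these, 909 were higher in mpk7_ko3 (5.12%) and 839 were lower (4.72%), while the median log2 fold change over all genes was -0.00681. Most changes were small. The median size was 0.383 on the log2 scale among the higher genes (1.3-fold) and 0.492 among the lower genes (1.41-fold). At least 2-fold changes were reached by 42 higher and 71 lower genes, and 1.5-fold changes by 176 and 299. The values of the 3 mpk7_ko3 and the 3 Col-0 libraries did not overlap for 1725 of the called genes, 9.71% of all genes tested, and 31.0% of all genes tested had no overlap, called or not. With library totals in place of TMM factors, 556 of 1478 called genes were higher, 37.6% against 52.0% with TMM factors. The count was lower without each of the 6 libraries in turn. It was 882 without mpk7_ko3 replicate 1, 901 without Col-0 replicate 3, 1008 without Col-0 replicate 1 and 1090 without Col-0 replicate 2. It was 1366 without mpk7_ko3 replicate 3 and 1415 without mpk7_ko3 replicate 2. Each such fit had fewer libraries in a group, and the part of this in the lower counts was not tested.

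**Figure D1:**
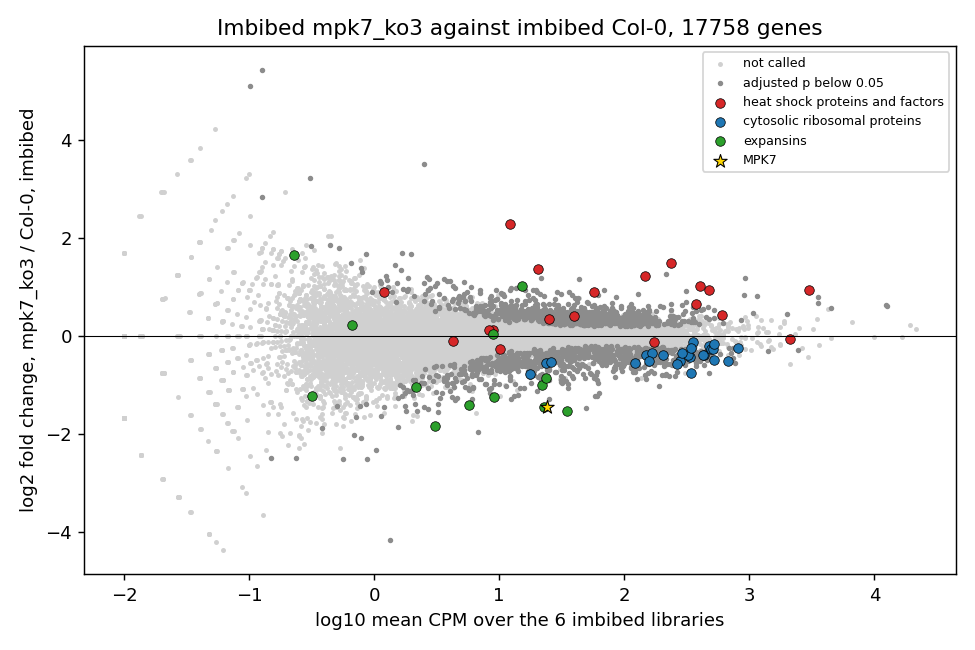
Log2 fold change of imbibed mpk7_ko3 over imbibed Col-0 (vertical axis) against mean level (horizontal axis, log10 CPM), with a point for each of the 17758 genes tested, dark grey where called, red for heat shock genes, blue for cytosolic ribosomal protein genes, green for expansins and a star for MPK7. Most of the 909 higher and 839 lower genes lie within 2-fold, and MPK7 lies at -1.45.

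Small heat shock proteins, chaperones that hold unfolding proteins in solution, were among the genes with the largest rises. HSP21 (AT4G27670), the chloroplast small heat shock protein, had 4.81, 4.08 and 3.65 CPM in the Col-0 libraries and 19, 14.8 and 27.3 CPM in the mpk7_ko3 libraries, a log2 fold change of 2.28 (SE 0.332, adjusted p = 0.000223). HSP22 (AT4G10250), a small heat shock protein of the endoplasmic reticulum, had 129, 121 and 122 CPM against 288, 328 and 423 CPM (log2 fold change 1.48, SE 0.175, adjusted p = 3.34e-05). In both genes every mpk7_ko3 library lay above every Col-0 library, which the rule for naming the largest changes required. Replicate 3 was the highest of the mutant. The cytosolic HSP17.6II had 11.3, 13 and 10.1 CPM against 26.9, 20.2 and 41 CPM (log2 fold change 1.36, SE 0.297, adjusted p = 0.00599), and HSP17.6B (AT2G29500) had 92.3, 87.1 and 84.2 CPM against 189, 196 and 226 CPM (log2 fold change 1.21, SE 0.11, adjusted p = 2.66e-06). The mitochondrial HSP23.6-MITO went from 271, 276 and 253 CPM to 495, 527 and 598 CPM (log2 fold change 1.02, SE 0.107, adjusted p = 1.13e-05). For these 3 genes too the groups did not overlap, which the same rule required. Genes of this family are similar in sequence, and how reads with several matches were counted is not given in the sources used here, so reads of close copies may be split between them.

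Of the larger chaperones and co-chaperones, Hsp70b, HSP90.1 and BAG6 rose. Hsp70b, a heat-inducible HSP70, had 578, 631 and 483 CPM in Col-0 and 1096, 1054 and 1662 CPM in mpk7_ko3, a log2 fold change of 1.17 (SE 0.148, adjusted p = 5.81e-05). HSP90.1, the heat-inducible cytosolic HSP90, had 344, 333 and 308 CPM against 539, 594 and 731 CPM (log2 fold change 0.92, SE 0.113, adjusted p = 5.47e-05). BAG6, a co-chaperone that binds calmodulin, had 52, 48.6 and 40.6 CPM against 98.4, 81.6 and 90.9 CPM (log2 fold change 0.94, SE 0.136, adjusted p = 0.000223). Each of the 3 was higher in every mutant library, which for Hsp70b the rule for naming required. HSFA9, the heat shock factor of maturing seeds, had 41.7, 43.5 and 35.6 CPM in Col-0, 81.4, 75.1 and 66.7 CPM in mpk7_ko3 and 49.99, 41.2 and 55.4 CPM in mkk3-1. It was chosen after its values were seen. It rose by 0.89 over Col-0 (SE 0.111, adjusted p = 5.81e-05), and it was the member of the heat shock list that also differed between the mutants, with a log2 fold change of 0.61 for mpk7_ko3 over mkk3-1 (adjusted p = 0.0145, edgeR).

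Of the 20 heat shock proteins and factors on the list, 19 were tested, 11 rose, 0 fell and 8 were not called. The median log2 fold change of the list was 0.644, against -0.00681 over all genes, and 5.12% of all genes were called higher. The sizes of the 11 calls ran from 0.40 to 2.28, and 14 of the 19 had no overlap between the groups, against 31.0% of all genes tested. Not called were, for example, HSP17.4, with 201, 172 and 169 CPM against 82.3, 249.8 and 159 CPM, whose mutant libraries spread on both sides of Col-0, the constitutive HSC70-1 with a log2 fold change of -0.08, and HSFA2, the factor best known from the heat response, with -0.27 (adjusted p = 0.157). These 3 were chosen after their values were seen. Without mpk7_ko3 replicate 3 in both states, 9 members were called and the median was 0.617. With each of the 6 libraries left out in turn the count was 9 to 11.

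**Figure D2:**
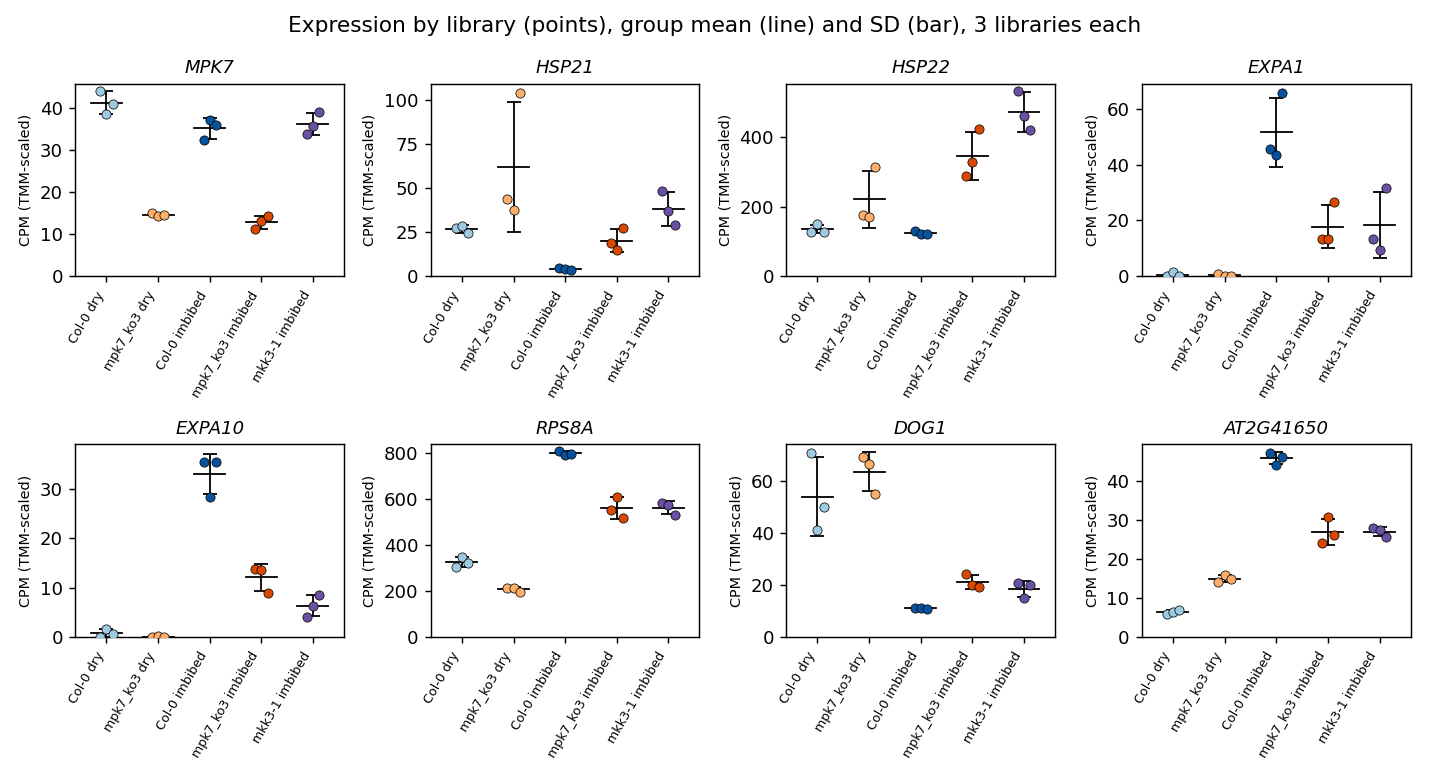
Level in CPM (vertical axes) of 8 genes in dry and imbibed libraries, with a point for each library, a line at the mean and a bar for the SD (n = 3). In imbibed seeds, HSP21, HSP22 and DOG1 were higher in all 3 mpk7_ko3 libraries than in all 3 Col-0 libraries, and MPK7, EXPA1, EXPA10, RPS8A and AT2G41650 were lower.

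The other genes among the 12 largest rises at a mean of at least 5 CPM were of several kinds. AT1G52560, a gene of the small heat shock protein family, had 136, 132 and 116 CPM against 299, 265 and 354 CPM (log2 fold change 1.26, SE 0.122, adjusted p = 4.35e-06). AT2G43580, a gene of the chitinase family, had 26.5, 24.7 and 29.4 CPM against 57.1, 60.7 and 62.8 CPM (log2 fold change 1.16, SE 0.117, adjusted p = 5.86e-06), and the uncharacterised AT4G23493 had 14.5, 12.4 and 13.1 CPM against 31.3, 25.9 and 32.8 CPM (log2 fold change 1.17, SE 0.109, adjusted p = 3.02e-06). AT5G53590, a SAUR-like gene of the family named for rapid induction by auxin, went from 2.84, 3.8 and 3.37 CPM to 6.61, 6.44 and 8.42 CPM (log2 fold change 1.1, SE 0.179, adjusted p = 0.000629). The groups did not overlap for any of these, as the rule for naming required. EXLA1, an expansin-like gene, is given with the expansins. The last of the 12 was the mitochondrial ATMG01370, at 3.5, 3.08 and 5.26 CPM against 6.13, 7.8 and 9.68 CPM (log2 fold change 1.0, SE 0.2, adjusted p = 0.00333).

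The lower genes of the ribosome moved together by small amounts. Of 25 genes for proteins of the cytosolic ribosome, all 25 were tested, 21 fell, 0 rose, and all 25 log2 fold changes were negative, from -0.79 to -0.14. The median was -0.402, against -0.00681 over all genes, and 4.72% of all genes were called lower. No member changed 2-fold, and 23 of 25 had no overlap between the groups, against 31.0% of all genes tested. RPL10B (AT1G26910) had 23, 21.7 and 22.5 CPM in Col-0 and 13.2, 13.3 and 12.3 CPM in mpk7_ko3, a log2 fold change of -0.79 (SE 0.15, adjusted p = 0.00198). RPL27AC had 430.0, 418 and 428 CPM against 214, 287 and 255 CPM (log2 fold change -0.76, SE 0.111, adjusted p = 0.000247), and RPL23AA had 325, 315 and 307 CPM against 208, 232 and 188 CPM (log2 fold change -0.59, SE 0.0907, adjusted p = 0.000374). In each of these every mutant library lay below the lowest Col-0 library. RPL3B fell by 0.56 (SE 0.123, adjusted p = 0.00612). RPS8A (AT5G20290), a protein of the small subunit, had 806, 789 and 796 CPM against 551, 609.6 and 517 CPM (log2 fold change -0.51, SE 0.0773, adjusted p = 0.000344). RPS10B (AT5G41520), of the same subunit, had 320.2, 315 and 342 CPM against 215, 251 and 220.5 CPM (log2 fold change -0.51, SE 0.0907, adjusted p = 0.00131). RPS8A and RPS10B were chosen after their values and promoters were seen. Ribosomal protein genes have close copies in this genome, so reads may be split between them. With each library left out in turn, 16 to 20 of the 25 were called.

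Genes for making ribosomes, such as nucleolar proteins, gave 1 call, where 4.72% of all genes were called lower and 5.12% higher. Of 23 ribosome biogenesis genes, all tested, 1 fell and 0 rose, with a median log2 fold change of -0.106. FIB2, the nucleolar fibrillarin that methylates ribosomal RNA, was the one, with 377, 362 and 405 CPM in Col-0 and 251, 285 and 259 CPM in mpk7_ko3 (log2 fold change -0.52, SE 0.111, adjusted p = 0.00479). The groups did not overlap for FIB2. Its span shares 73 bases with another tested gene on the same strand, which had 552 reads in all 18 libraries against 76805.

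Gene length moved with the direction of the calls. In the shortest of 8 equal bins, with merged exon lengths of 22 to 940 bases, the median log2 fold change was -0.10 and 10.6% of 2223 genes were called lower. In the longest bin, from 3040 to 16614 bases, the median was 0.00605 and 2.66% were called lower. The ribosomal protein genes had a median length of 1180 bases, against 1780 over all genes. With the trend of length and GC content removed from each library, an alternative chosen after seeing the data, 21 ribosomal protein genes were called lower and their median was -0.402.

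**Figure D3:**
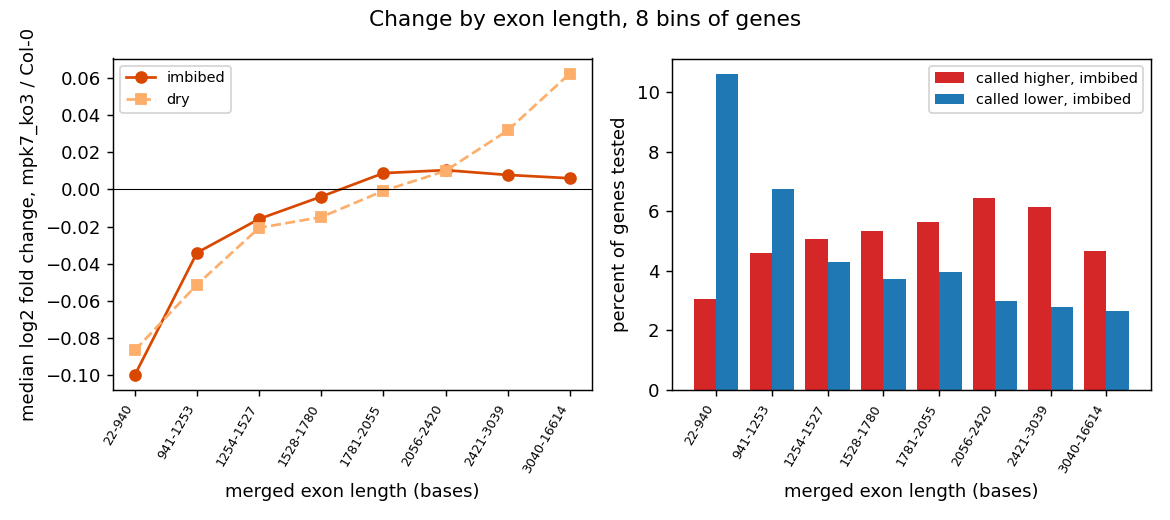
Median log2 fold change of mpk7_ko3 over Col-0 and share of genes called, by bins of merged exon length in bases from shortest to longest. In imbibed seeds the median was -0.10 in the shortest bin and 0.00605 in the longest, and the share called lower was 10.6% and 2.66%.

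The promoters of the ribosomal protein genes are shown because short motifs were shared among members that fell together. Site II elements (TGGGCC and TGGGCT) are known from promoters of plant genes active in growing cells, ribosomal protein genes among them. The first 3 windows each hold both forms, and that of HSP22, a gene that rose, is shown beside them because it holds TGGGCC too. Each window has the 250 bases before the annotated start of the gene, 5′ to 3′ on the strand of the gene, with matches to TGGGCC or TGGGCT on either strand in capitals (for HSP22, to TGGGCC alone). The letters are from RefSeq TAIR10.1, whose coordinates match those of the count table for 32520 of 32548 nuclear genes.
RPL10B (chr1:9321400-9321649, plus strand): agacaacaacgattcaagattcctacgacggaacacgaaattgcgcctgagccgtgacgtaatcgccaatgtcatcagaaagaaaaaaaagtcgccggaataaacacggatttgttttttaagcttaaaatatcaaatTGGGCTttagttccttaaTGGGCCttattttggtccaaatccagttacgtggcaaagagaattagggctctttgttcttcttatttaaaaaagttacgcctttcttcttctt
RPS8A (chr5:6853107-6853356, minus strand): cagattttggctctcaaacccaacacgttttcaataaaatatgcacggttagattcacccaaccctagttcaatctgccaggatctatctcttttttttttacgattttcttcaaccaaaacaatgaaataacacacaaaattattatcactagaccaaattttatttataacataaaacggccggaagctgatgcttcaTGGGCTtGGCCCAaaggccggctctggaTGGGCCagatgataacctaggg
RPS10B (chr5:16610693-16610942, minus strand): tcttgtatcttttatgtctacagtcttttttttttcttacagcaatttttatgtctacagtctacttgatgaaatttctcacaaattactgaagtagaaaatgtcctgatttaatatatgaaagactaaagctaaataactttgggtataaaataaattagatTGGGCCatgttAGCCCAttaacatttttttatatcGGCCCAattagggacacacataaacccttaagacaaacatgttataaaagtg
HSP22 (chr4:6370088-6370337, plus strand): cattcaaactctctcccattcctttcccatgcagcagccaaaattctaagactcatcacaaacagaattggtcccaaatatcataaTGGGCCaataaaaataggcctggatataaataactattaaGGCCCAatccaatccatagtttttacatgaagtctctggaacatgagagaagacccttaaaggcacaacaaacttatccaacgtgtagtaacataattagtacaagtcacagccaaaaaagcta
In RPL10B matches began at -112 and -94 from the start, in RPS8A at -50, -43 and -22, and in RPS10B at -87, -76 and -52. In HSP22 they began at -164 and -124. Where TGGGCC is followed by CA, the other strand reads TGGGCC too, so such matches overlap.

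The motifs were counted on both strands in windows of 250 bases for 17640 genes tested. They were chosen after the results of the lists were seen. TGGGCC was in 17.9% of all windows, in 15 of 25 ribosomal protein genes (60.0%), in 33.3% of the 837 lower genes with a window and in 13.8% of the 907 higher ones. TGGGCT was in 15.5% of all windows, in 10 of 25 ribosomal protein genes (40.0%), in 25.9% of the lower genes and in 12.1% of the higher ones. The telo box AAACCCTA was in 4.10% of all windows, in 2 of 25 ribosomal protein genes, in 8.36% of the lower genes and in 2.65% of the higher ones. Among the 19 heat shock genes, TGGGCC was in 9 (47.4%), and TGGGCT was in 5 (26.3%). The heat shock element with a pair of units, GAANNTTC, was in 9.25% of all windows and in 4 of 19 heat shock genes. Its longer form with 3 units, which contains it, was in 0.454% of all windows and in 3 of 19 heat shock genes, HSFA2, HSFA7A and HSP17.4, none of which was called. These are matches of letters, with no evidence of binding in these data.

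Expansins, proteins that loosen the cell wall, were lower in part. Of 25 on the list, 13 passed the filter on low counts, 5 fell and 1 rose, with a median log2 fold change of -1.04 against -0.00681 over all genes. Of all genes, 4.72% were called lower. EXPA1 (AT1G69530) had 45.5, 43.5 and 65.6 CPM in Col-0 and 13.2, 13.5 and 26.6 CPM in mpk7_ko3, a log2 fold change of -1.53 (SE 0.345, adjusted p = 0.00715). EXPA10 (AT1G26770) had 35.4, 28.5 and 35.6 CPM against 13.8, 13.6 and 8.97 CPM (log2 fold change -1.45, SE 0.257, adjusted p = 0.00125). In both, all mutant libraries lay below the lowest Col-0 library, as the rule for naming required. EXPA3 had 28.1, 27.2 and 32.1 CPM against 14.6, 15.3 and 13.8 CPM (log2 fold change -1.0, SE 0.137, adjusted p = 0.000146). EXPA15 had 3.37, 5.76 and 5.3 CPM against 1.99, 1.28 and 0.711 CPM (log2 fold change -1.85, SE 0.402, adjusted p = 0.00553). EXPA8 had 24.6, 27.6 and 39.9 CPM against 12.4, 13.4 and 24.6 CPM (log2 fold change -0.87, SE 0.235, adjusted p = 0.0225), and mpk7_ko3 replicate 3 lay just below Col-0 replicate 1. EXLA1, an expansin-like gene, went the other way, with 10.5, 11.3 and 8.46 CPM against 23.5, 17.3 and 20.7 CPM (log2 fold change 1.02, SE 0.167, adjusted p = 0.000661).

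The other 7 measured expansins were not called. EXPA2, the expansin best known from the endosperm of germinating seeds, had 8.27, 14.5 and 15.8 CPM in Col-0 and 3.54, 1.49 and 10.9 CPM in mpk7_ko3 (log2 fold change -1.26, adjusted p = 0.243). Its replicate 3 lay within the range of Col-0. Without replicate 3 of mpk7_ko3 in both states, EXPA2 was called at -2.34 with an adjusted p of 0.0283. The others had log2 fold changes of -1.41 (EXPA9), -1.23 (EXPB1), -1.04 (EXPA4), 0.04 (EXPA13), 0.21 (EXLA2) and 1.65 (EXPA5), with adjusted p-values of 0.139, 0.257, 0.384, 0.904, 0.847 and 0.173 from edgeR. The count of lower expansins was 3 without mpk7_ko3 replicate 1 and 2 with DESeq2. EXPA1 was not called without mpk7_ko3 replicate 1 (adjusted p = 0.0509), nor with DESeq2 (0.196), and EXPA10 had 0.0725 with DESeq2. EXPA8 had 0.0758 with DESeq2 and lost its call without Col-0 replicate 3 (0.165), mpk7_ko3 replicate 1 (0.13) or mpk7_ko3 replicate 2 (0.0948).

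Of 14 tested genes for enzymes that cut or join xyloglucan and mannan, 2 fell and 0 rose, with a median of -0.475. The shares over all genes were 4.72% called lower and 5.12% called higher. MAN7, an endo-beta-mannanase that degrades mannan of the endosperm wall, had 25.2, 28.8 and 29.4 CPM in Col-0 and 14.9, 13.4 and 20 CPM in mpk7_ko3 (log2 fold change -0.79, SE 0.142, adjusted p = 0.00144). The groups did not overlap for MAN7, whose span shares 131 bases with a tested neighbour on the same strand. XTH5, an enzyme that joins xyloglucan chains, fell by 0.61 (adjusted p = 0.0251), and it was not called without Col-0 replicate 1 or 3 or mpk7_ko3 replicate 2 or 3, with adjusted p up to 0.158.

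**Figure D4:**
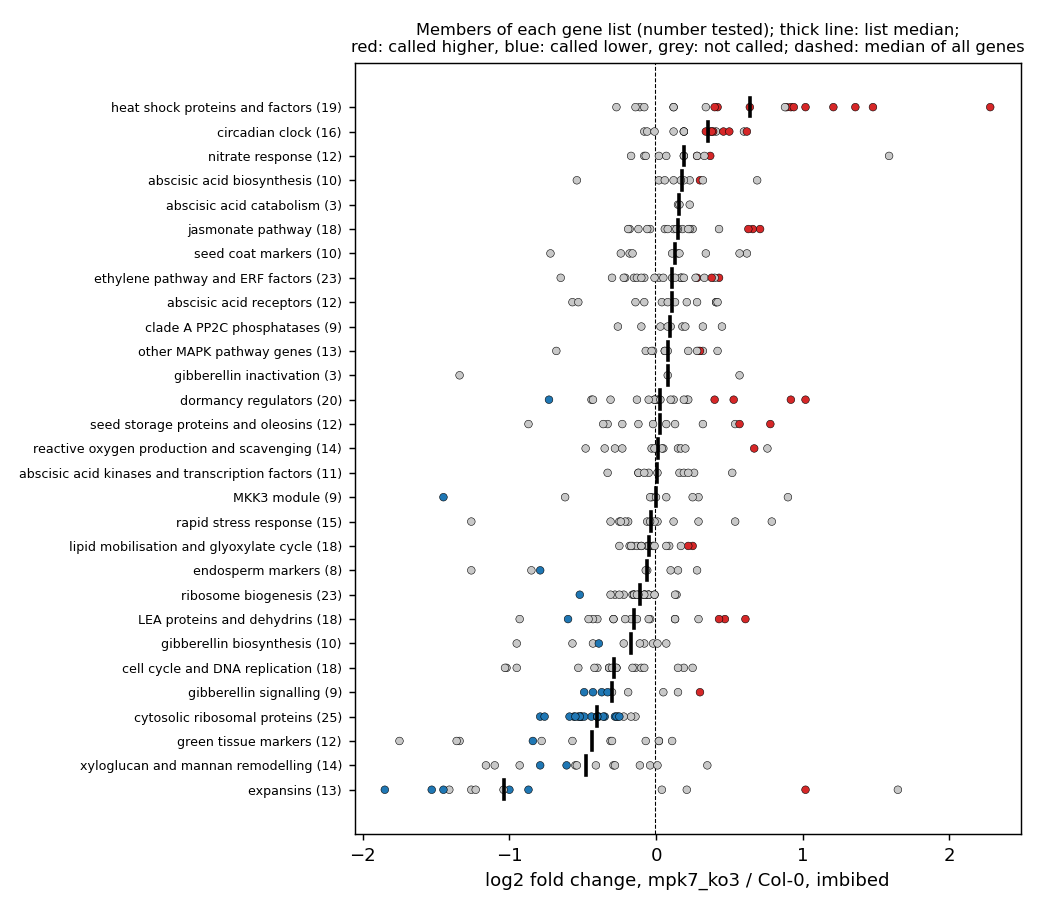
Log2 fold change of imbibed mpk7_ko3 over imbibed Col-0 for each tested member of the gene lists, red where called higher, blue where called lower and grey where not called, with a thick line at the median of the list and a dashed line at that of all genes. Heat shock genes (median 0.644) and clock genes (0.353) lie to the higher side, and expansins (-1.04) and ribosomal protein genes (-0.402) to the lower.

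Several other genes fell by over 2-fold. AT2G24280, an alpha/beta hydrolase, had 76.8, 70.2 and 70.03 CPM in Col-0 and 28.7, 22 and 27.3 CPM in mpk7_ko3 (log2 fold change -1.47, SE 0.115, adjusted p = 2.53e-07). AT1G49700, of unknown function, had 11.8, 8.88 and 11.9 CPM against 2.47, 3.62 and 2.21 CPM (log2 fold change -1.97, SE 0.339, adjusted p = 0.000983). It had the largest fall among genes at a mean of at least 5 CPM without overlap. NRT2.6, of the family of high-affinity nitrate transporters, went from 17.3, 13.7 and 21.8 CPM to 7.56, 6.01 and 7.87 CPM (log2 fold change -1.3, SE 0.248, adjusted p = 0.00215). NIP5;1, a boric acid channel, went from 6.95, 7.48 and 11.6 CPM to 4.34, 2.94 and 3.32 CPM (log2 fold change -1.29, SE 0.225, adjusted p = 0.00107). MAP65-2, which bundles microtubules, went from 17.9, 19.9 and 17.5 CPM to 7.24, 6.14 and 9.96 CPM (log2 fold change -1.24, SE 0.217, adjusted p = 0.00112). These 3 genes had all mutant libraries below those of Col-0, as the rule for naming required. SDH8, a subunit of succinate dehydrogenase, fell by 1.29 (SE 0.229, adjusted p = 0.00131), AT2G25210, of the ribosomal protein L39 family, fell by 1.23 (SE 0.141, adjusted p = 2.63e-05), and AT1G55360, annotated as DUF239, fell by 1.21 (SE 0.151, adjusted p = 5.81e-05). AT7SL-1, a 7SL RNA of the signal recognition particle, had 76.2, 98.5 and 73.6 CPM against 19.9, 44 and 41.3 CPM (log2 fold change -1.24, SE 0.306, adjusted p = 0.0131). Its call was lost without Col-0 replicate 2 (0.0593) or mpk7_ko3 replicate 1 (0.0823). RBCS1A, the small subunit of Rubisco and the called marker of green tissue, had 107, 98.5 and 119 CPM against 59, 52.5 and 69.4 CPM (log2 fold change -0.84, SE 0.166, adjusted p = 0.00282).

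Of 16 circadian clock genes tested, 7 rose, 0 fell and 9 were not called, where 5.12% of all genes were called higher. The median log2 fold change was 0.353, and 13 of the 16 had no overlap between the groups, against 31.0% of all genes tested. LNK2, a co-activator of clock genes, had 93.4, 83.8 and 90.9 CPM in Col-0 and 141, 128 and 111 CPM in mpk7_ko3 (log2 fold change 0.50, SE 0.0932, adjusted p = 0.00173). RVE8, a MYB-like factor that activates evening genes, had 46.8, 47.5 and 47.2 CPM against 69, 57.6 and 68.3 CPM (log2 fold change 0.46, SE 0.0747, adjusted p = 0.000578), and PRR7, a pseudo-response regulator, had 76.7, 74.1 and 76.8 CPM against 109, 99.98 and 89.7 CPM (log2 fold change 0.39, SE 0.077, adjusted p = 0.00291). All mutant libraries of these 3 genes lay above the highest of Col-0. PRR9, a further pseudo-response regulator, had 11.8, 9.36 and 11.4 CPM against 20.8, 15.9 and 13.2 CPM (log2 fold change 0.62, SE 0.15, adjusted p = 0.012), and it was not called without Col-0 replicate 2 (0.0704) or mpk7_ko3 replicate 1 (0.104). The count of clock genes called was 5 to 7 with each library left out in turn. The labels give no time of day of sampling. In the 250-base windows, the evening element AAAATATCT was in 3 of 16 clock genes and 2.35% of all windows, and the G box CACGTG in 5 of 16 and 7.69% of all.

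Among dormancy regulators, DOG1, which sets the depth of seed dormancy, was higher in the mutant. DOG1 (AT5G45830) had 11.2, 11.3 and 10.9 CPM in imbibed Col-0 and 24.1, 19.9 and 19.2 CPM in imbibed mpk7_ko3, a log2 fold change of 0.92 (SE 0.163, adjusted p = 0.00121). Every mutant library lay above every Col-0 library. In dry seeds DOG1 had 70.6, 41 and 50.1 CPM against 69.2, 66.4 and 55 CPM, groups that overlapped (log2 fold change 0.24, adjusted p = 0.445). The interaction, the difference of the imbibed from the dry log2 fold change, was 0.68 with an adjusted p of 0.449. RVE1, a MYB-like factor that holds back germination, had 1.98, 1.88 and 2.26 CPM against 4.22, 4.01 and 4.15 CPM (log2 fold change 1.02, SE 0.206, adjusted p = 0.00355). RVE2, its close relative, had 26.5, 25.4 and 24.4 CPM against 39.7, 33 and 37.5 CPM (log2 fold change 0.53, SE 0.0716, adjusted p = 0.000131). For both RVE1 and RVE2 the groups did not overlap.

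Of the 20 dormancy regulators, all tested, 4 rose and 1 fell, with a median of 0.0265, where 5.12% of all genes were called higher and 4.72% lower. The fourth rise was DOGL2, a DOG1-like gene named after its values were seen, at 77.3, 78.1 and 68.3 CPM against 99.6, 95.9 and 100.3 CPM (log2 fold change 0.40, SE 0.0829, adjusted p = 0.00399). The fall was DOGL3, also DOG1-like, at 19.2, 23.8 and 20.2 CPM against 12.3, 13.1 and 12.8 CPM (log2 fold change -0.73, SE 0.135, adjusted p = 0.00178). For both, the groups did not overlap. With each library left out in turn, 4 higher members were called each time. FUS3, a master regulator of seed maturation, had 10.4, 7.76 and 7.11 CPM against 17, 18.9 and 11.7 CPM (log2 fold change 0.92, SE 0.175, adjusted p = 0.0022).

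Genes of abscisic acid, the hormone of dormancy, gave few calls, where 5.12% of all genes were called higher and 4.72% lower. Of 10 biosynthesis genes tested, ABA1, the zeaxanthin epoxidase, rose from 150.5, 165 and 148 CPM to 193, 189.8 and 186 CPM (log2 fold change 0.30, SE 0.0657, adjusted p = 0.00656), without overlap, and the others were not called, NCED6 at 0.06 (adjusted p = 0.949) and NCED9 at 0.32 (0.375) among them. The count of called genes was 0 of 3 catabolism genes, 0 of 12 receptors, 0 of 9 clade A PP2C phosphatases and 0 of 11 kinases and transcription factors. CYP707A2, the main abscisic acid hydroxylase of imbibed seeds, had 56.2, 49.3 and 60.6 CPM against 66.1, 56.3 and 61.5 CPM (log2 fold change 0.15, SE 0.149, adjusted p = 0.599), and its groups overlapped. ABI3 and ABI5, transcription factors of the response, had log2 fold changes of -0.12 and -0.12. The medians of the 5 lists were 0.18, 0.157, 0.107, 0.0953 and 0.00645.

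In gibberellin signalling the genes for DELLA proteins, which repress the response, had small decreases. Their calls were each lost when certain single libraries were left out. Of 9 genes tested, 4 fell and 1 rose, with a median of -0.301, where 4.72% of all genes were called lower and 5.12% higher. GAI had 94.4, 97.3 and 105 CPM in Col-0 and 68.3, 80.9 and 79.95 CPM in mpk7_ko3 (log2 fold change -0.37, SE 0.0959, adjusted p = 0.0163), and RGL3 had 44.2, 44.2 and 49.8 CPM against 32.6, 33 and 32.9 CPM (log2 fold change -0.49, SE 0.126, adjusted p = 0.0168). In both, the groups did not overlap. RGL2, the main DELLA of germination, had 108, 118 and 131 CPM against 76.9, 74.3 and 115 CPM (log2 fold change -0.43, SE 0.118, adjusted p = 0.0253), and its replicate 3 lay within the range of Col-0. RGA fell by 0.33 (SE 0.1, adjusted p = 0.0402). GID1A, a gibberellin receptor, rose from 117, 123 and 112 CPM to 139, 141 and 155 CPM (log2 fold change 0.30, SE 0.0765, adjusted p = 0.0147). RGL1, GID1B, GID1C and SLY1 were not called, at -0.19, -0.30, 0.05 and 0.15. The count of lower genes was 0 without Col-0 replicate 3, 0 without mpk7_ko3 replicate 1, 2 without mpk7_ko3 replicate 2 and 3 without each of the other libraries. GID1A lost its call without Col-0 replicate 1 (adjusted p = 0.0521), Col-0 replicate 3 (0.0805) or mpk7_ko3 replicate 3 (0.0684).

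Of 10 gibberellin biosynthesis genes tested, 1 was called lower and 0 higher, where 4.72% of all genes were called lower and 5.12% higher. The list median was -0.168. GA20OX3, a GA 20-oxidase, had 88.4, 99.3 and 89.95 CPM against 60.6, 65.4 and 85.3 CPM (log2 fold change -0.39, SE 0.123, adjusted p = 0.0473), and this call held without mpk7_ko3 replicate 3 (0.00721) and was lost without each of the other 5 libraries, with adjusted p up to 0.229. GA3OX1 and GA3OX2, the enzymes of the last step to active gibberellin, had 3.25, 2.92 and 1.89 CPM against 3.22, 2.3 and 1.38 CPM (log2 fold change -0.22, SE 0.349, adjusted p = 0.765) and 4.86, 2.96 and 4.56 CPM against 2.94, 2.64 and 0.83 CPM (log2 fold change -0.95, SE 0.392, adjusted p = 0.153). Both overlapped between the groups. Of 3 inactivation genes tested, 0 were called.

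The MAP kinase module around MPK7 had no further call. Of 13 genes on the list, 9 were tested, 1 fell, MPK7 itself, and the median was -0.00251. MKK3 had 14.1, 13.4 and 12.5 CPM in Col-0 and 13, 14.5 and 14.5 CPM in mpk7_ko3 (log2 fold change 0.07, SE 0.0967, adjusted p = 0.733). The other MAP kinases of the C group, MPK1, MPK2 and MPK14, had log2 fold changes of -0.03, -0.04 and 0.29, with adjusted p-values of 0.933, 0.924 and 0.607 from edgeR. The upstream kinases MAPKKK13, MAPKKK14, MAPKKK19 and MAPKKK20 had 0.25, 0.90, -0.62 and -0.00, with adjusted p-values of 0.503, 0.157, 0.283 and 1. Of 13 other MAPK pathway genes tested, 2 rose and 0 fell, where 5.12% of all genes were called higher and 4.72% lower. MKK5, a kinase of the stress cascades, went from 29.1, 30.7 and 29.8 CPM to 37.9, 36.1 and 36.1 CPM (log2 fold change 0.30, SE 0.0697, adjusted p = 0.00957), without overlap. MPK6 rose by 0.29 (adjusted p = 0.0132) and lost its call without Col-0 replicate 1 or 2 or mpk7_ko3 replicate 1, with adjusted p up to 0.0798.

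The remaining lists gave from 0 to 4 calls each, to be read against 5.12% of all genes called higher and 4.72% called lower. Among 18 jasmonate genes, 3 rose and 0 fell, with a median of 0.149. JAZ2, a repressor of jasmonate signalling, had 7.28, 8.16 and 8.5 CPM against 13.4, 12.1 and 12.3 CPM (log2 fold change 0.66, SE 0.113, adjusted p = 0.000983), and JAZ3 had 34, 30.4 and 29.1 CPM against 50.7, 50.2 and 43.7 CPM (log2 fold change 0.63, SE 0.0979, adjusted p = 0.000426), both without overlap. JAZ8, the third, lost its call without Col-0 replicate 2 or 3 or mpk7_ko3 replicate 1, with adjusted p up to 0.13. Of 23 ethylene pathway genes, 3 rose and 0 fell, with a median of 0.112. ERF12, an ethylene response factor known to repress DOG1, had 60.1, 63.5 and 57.2 CPM against 79.5, 76.2 and 79.8 CPM (log2 fold change 0.38, SE 0.0696, adjusted p = 0.00153), without overlap, while ERF4 was not called at -0.22 (adjusted p = 0.564). The other calls were less stable. ACS2, an enzyme of ethylene synthesis, lost its call without Col-0 replicate 1 or 3 or mpk7_ko3 replicate 1 or 3, with adjusted p up to 0.122. EIN3, a transcription factor of ethylene signalling, lost its call without any library but mpk7_ko3 replicate 1, with adjusted p up to 0.195, and with library totals (0.155). Without Col-0 replicate 1 or 3 or mpk7_ko3 replicate 3, ERF12 was thus the list's 1 call of the 3. Of 12 nitrate response genes, 2 rose and 0 fell, with a median of 0.193. NLP7, a transcription factor and nitrate sensor, had 35.5, 33.8 and 32.6 CPM against 44.8, 43.1 and 44.1 CPM (log2 fold change 0.37, SE 0.0678, adjusted p = 0.00149), without overlap. NLP8, which acts in nitrate-promoted germination, rose by 0.28 (adjusted p = 0.0449) and lost its call without any 1 of the 6 libraries, with adjusted p up to 0.164, and with library totals (0.125).

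Seed storage, protection and reserve genes were mostly not called, and the shares of all genes called were 5.12% higher and 4.72% lower. Of 12 storage protein and oleosin genes, 2 rose and 0 fell, with a median of 0.0258. OLEO1, an oleosin of the oil body, had 3853, 3492 and 3455 CPM against 5451, 5695 and 4853 CPM (log2 fold change 0.57, SE 0.125, adjusted p = 0.00627). Its mutant libraries all lay above Col-0. The other call, CRU2, a cruciferin storage protein, was lost without Col-0 replicate 2 or 3 or mpk7_ko3 replicate 1 or 2 (adjusted p up to 0.229), with DESeq2 (0.0663), with upper-quartile factors (0.0518) and with the length and GC trend removed (0.0595). Of 18 LEA proteins and dehydrins, 3 rose and 1 fell, with a median of -0.151. XERO2, a dehydrin, had 42.2, 48.1 and 41.8 CPM against 70.7, 59.6 and 71 CPM (log2 fold change 0.61, SE 0.137, adjusted p = 0.00742), without overlap. The calls of the other 3 were each lost when certain single libraries were left out. The fall of RAB28 was lost without any Col-0 library or mpk7_ko3 replicate 1, with adjusted p up to 0.166. The rise of ECP31 was lost without Col-0 replicate 1 or 3 or mpk7_ko3 replicate 1 or 3 (up to 0.0943), and that of LEA14 without Col-0 replicate 1 or 3 or mpk7_ko3 replicate 3 (up to 0.0555). Without Col-0 replicate 1 or 3, XERO2 was the 1 call left of the 4. Among 14 genes of reactive oxygen production and scavenging, CAT1, a catalase, rose from 40.9, 42.6 and 35.4 CPM to 68, 56.2 and 64.7 CPM (log2 fold change 0.67, SE 0.103, adjusted p = 0.000401), the list's only call, with a list median of 0.0158. Of 18 genes of lipid mobilisation, 2 rose and 0 fell (median -0.0444), and both calls, ACX1 and AIM1, were lost without 4 or more of the 6 libraries in turn. The count of called genes was 0 of 18 in the cell cycle list, with a median of -0.287, and 0 of 15 in the list of rapid stress genes, with a median of -0.0373. No seed coat marker was called, and of 8 endosperm markers MAN7 fell.

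In dry seeds, before imbibition, fewer genes were called between the same genotypes, from libraries that share none with the imbibed comparison. Same-numbered dry and imbibed libraries of a genotype may still be related, and their correlations are given with the processing. The count was 491 genes, 2.76% of those tested, 116 higher (0.653%) and 375 lower (2.11%). It was 150 without Col-0 dry replicate 2, 255 without mpk7_ko3 dry replicate 2 and 265 without Col-0 dry replicate 3. With a model of only the libraries compared, in place of all 18, it was 73, and with DESeq2 775. Of the genes called higher in imbibed seeds, 59 were also called higher in dry seeds, 6.49% of the imbibed and 50.9% of the dry calls. Of those called lower, 253 were also lower in dry seeds, 30.2% of the imbibed and 67.5% of the dry calls. In the opposite direction, 2 genes higher and 1 gene lower in imbibed seeds were called in dry seeds. Called or not, 87.6% of the higher and 93.9% of the lower genes had the same sign in dry seeds, against 50.0% and 49.8% of all genes. The median log2 fold change of the higher genes was 0.383 imbibed and 0.151 dry, and of the lower genes -0.492 and -0.359.

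**Figure D5:**
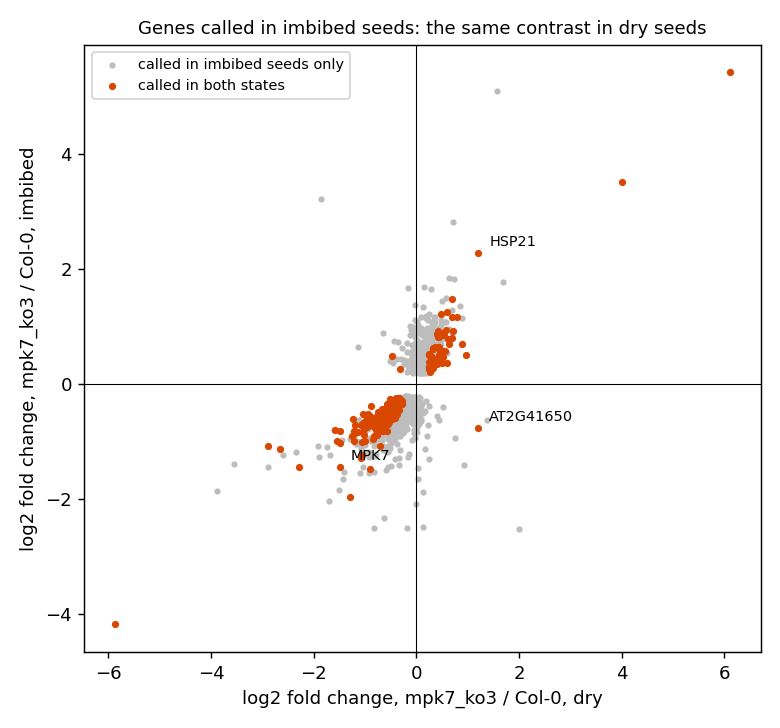
Log2 fold change of mpk7_ko3 over Col-0 in imbibed seeds (vertical axis) against that in dry seeds (horizontal axis), for the genes called in imbibed seeds. Points are orange where the gene was called in both states. The 253 genes called lower in both lie in the lower left with MPK7, the 59 called higher in both in the upper right, and AT2G41650 lies apart with 1.21 dry and -0.76 imbibed.

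The ribosomal protein genes were lower in dry mpk7_ko3 too, with 16 of 25 called lower, all 25 negative and a median of -0.401. Of the heat shock list, 5 of 19 rose in dry seeds, with a median of 0.199. Over all genes in dry seeds, 0.653% were called higher and 2.11% lower, and the median log2 fold change was 1.75e-05. HSP21 had 27.6, 28.8 and 24.4 CPM in dry Col-0 and 44.2, 37.9 and 104 CPM in dry mpk7_ko3 (log2 fold change 1.21, SE 0.279, adjusted p = 0.0203). HSP22 had 128, 149.9 and 129 CPM against 177, 171 and 315 CPM (log2 fold change 0.70, SE 0.174, adjusted p = 0.0316). In both, replicate 3 of dry mpk7_ko3 was the highest library, and without it the dry calls of HSP21 (adjusted p = 0.122), HSP22 (0.149), HSP17.6B (0.0878), HSP90.1 (0.144) and BAG6 (0.12) were lost. BAG6 is not on the heat shock list, so the list also had a dry call not named here. The dry calls of all 5 genes just named were also lost with a model of only the libraries compared, with adjusted p from 0.134 to 0.173. They were also lost without Col-0 dry replicate 2 or 3, with adjusted p from 0.0732 to 0.161, that of HSP22 without Col-0 dry replicate 1 (0.0686) and that of HSP90.1 without mpk7_ko3 dry replicate 2 (0.0911). The clock list had 0 calls in dry seeds, with a median of 0.148, and 1 of 13 expansins was called. EXPA3, the one, had 4.73, 7.05 and 5.84 CPM against 2.55, 3.13 and 2.81 CPM (log2 fold change -1.06, SE 0.194, adjusted p = 0.00466), a dry call not tried under the alternatives. Expansin levels were low before imbibition. EXPA1, for example, had 0.274, 1.48 and 0.128 CPM in dry Col-0 and 0.827, 0.267 and 0.0598 CPM in dry mpk7_ko3. Among genes that fell in both states was THA1, a threonine aldolase, with 20.3, 19.9 and 19.96 CPM against 9.55, 8.36 and 10.4 CPM imbibed (log2 fold change -1.08, SE 0.108, adjusted p = 5.86e-06) and -0.70 (SE 0.114, adjusted p = 0.00162) dry, with no overlap in either state. The dry call of THA1 was lost with a model of only the libraries compared (adjusted p = 0.0506). FUS3 rose in both, by 0.72 in dry seeds (adjusted p = 0.0199), a dry call lost without Col-0 dry replicate 2 (0.132) or 3 (0.0607) or mpk7_ko3 dry replicate 2 (0.0586) or 3 (0.0523).

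The test of the difference between the states, the interaction, called 1 gene, 0.00563% of those tested. AT2G41650 (chr2:17362645-17364518, uncharacterised) had 5.82, 6.52 and 7.0 CPM in dry Col-0 and 14.1, 15.9 and 14.8 CPM in dry mpk7_ko3. After imbibition it had 47.1, 44.2 and 46.2 CPM in Col-0 and 24, 30.7 and 26.3 CPM in mpk7_ko3. It was thus higher in all dry mutant libraries (log2 fold change 1.21, SE 0.114, adjusted p = 5.21e-06) and lower in all imbibed ones (log2 fold change -0.76, SE 0.092, adjusted p = 4.21e-05), with an interaction of -1.98 (SE 0.147, adjusted p = 2.14e-07). Its log2 increase on imbibition was 2.83 in Col-0 and 0.85 in mpk7_ko3. In mkk3-1 it had 5.63, 6.51 and 6.94 CPM dry and 27.9, 27.5 and 25.7 CPM imbibed. The span of AT2G41650 shares 1144 bases with AT2G41640 on the same strand, which had 1321 reads in all against 8696 and log2 fold changes of -0.01 imbibed (adjusted p = 0.997) and -0.07 dry (0.937). The number of genes called in the interaction was 19 without mpk7_ko3 dry replicate 3 and 58 with DESeq2.

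Imbibed mkk3-1 shared its Col-0 libraries with imbibed mpk7_ko3, so the comparisons are set side by side without a measure of likeness. In mkk3-1 1412 genes were called (7.95%), 644 higher (3.63%) and 768 lower (4.32%). The count was 763 without Col-0 replicate 1, 787 without Col-0 replicate 3, 796 without mkk3-1 replicate 1 and 846 without mkk3-1 replicate 3. The heat shock list had 12 of 19 members higher in mkk3-1 (median 0.687), against 11 in mpk7_ko3 (0.644). HSP21 had 48.4, 37.3 and 29.1 CPM and HSP22 533, 461 and 421 CPM in mkk3-1. The ribosomal list had 22 of 25 lower in mkk3-1 (median -0.399), the expansin list 5 of 13 lower (median -1.28) and the clock list 8 of 16 higher (median 0.295). Of the 20 dormancy regulators, 4 rose and 1 fell in mkk3-1 too. DOG1 had 20.8, 15.2 and 20.03 CPM there (log2 fold change 0.74, adjusted p = 0.00665). GA3OX2 was called lower in mkk3-1 (-2.37, adjusted p = 0.00332) and not in mpk7_ko3 (-0.95, 0.153), and the difference between the mutants was not called (1.42, 0.203). JAZ2 and JAZ3 had 0.07 and 0.14 in mkk3-1, with differences between the mutants of 0.60 (adjusted p = 0.0191) and 0.49 (0.0279).

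The direct test between the mutants called 60 genes in imbibed seeds, 0.338% of those tested, 37 higher in mpk7_ko3 (0.208%) and 23 lower (0.13%). The count moved with single libraries, to 202 without mpk7_ko3 replicate 3, 18 without mpk7_ko3 replicate 1, 32 without mpk7_ko3 replicate 2, 22 without mkk3-1 replicate 1 and 24 without mkk3-1 replicate 2. MPK7 was lower in mpk7_ko3 (-1.49, adjusted p = 2.22e-09). IRT3, a zinc and iron transporter, had 27.8, 28.3 and 32.2 CPM in mkk3-1 and under 1 CPM in every imbibed library of Col-0 and mpk7_ko3. In the other direction, the first gene by the rule for naming was AT3G05945, an uncharacterised gene with 67.7, 54.5 and 59.3 CPM in mpk7_ko3 and 12.2, 6.36 and 11.4 CPM in mkk3-1 (log2 fold change 2.59, SE 0.188, adjusted p = 3.4e-08). EPR1, an extensin-like protein of the endosperm, had 6943, 6049.7 and 5102 CPM in Col-0, 9031, 7112 and 5774 CPM in mpk7_ko3 and 2975, 3352 and 3011 CPM in mkk3-1. Its level in mpk7_ko3 overlapped with Col-0 (log2 fold change 0.28, adjusted p = 0.277) and lay above all libraries of mkk3-1 (log2 fold change 1.23, SE 0.152, adjusted p = 0.000211). The count of ribosomal protein genes, expansins, clock genes and dormancy regulators called between the mutants was 0 in each list.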

How the data were processed

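Total RNA of freshly harvested seeds was sequenced as paired reads, per the labels' protocols. The authors deposited a table of raw counts per gene and library. Among the tools in the submitters' processing notes are featureCounts 2.0.1 and DESeq2 1.34.0, beside HISAT2 2.1.0, fastp 0.20.0 and the build TAIR10, with no settings. The strand setting and the treatment of reads with several matches are not given in the sources used here. Of 173 genes that the naming rule or the largest changes gave, 20 share part of their span with another tested gene, and without the strand setting reads of such pairs may not be told apart.

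Here, filterByExpr (minimum count 10) removed 15075 genes with 0.0393% of counts, 7726 of them without a read. The remaining counts, scaled with TMM factors, entered 1 model in edgeR 4.0.16 (R 4.3.3; glmQLFit, glmQLFTest) of all 18 libraries with a mean for each of 6 groups and 12 residual degrees of freedom, from which contrasts gave the comparisons. Two-sided p-values were adjusted by the method of Benjamini and Hochberg over every gene tested, with a threshold of 0.05. The SE was taken as the size of the log2 fold change divided by the square root of F. Library levels on the log scale, as for the principal components, were computed with 2 as the prior count. This setting did not enter the fitted fold changes. Library totals were 18249333 to 21036275 counts over the 18 libraries, and the common coefficient of biological variation was 0.104. Libraries of a group differed by more than counting noise (chi-square per degree of freedom from 8.31 to 25.2 in the 6 imbibed libraries compared). The model was tested on simulated data.

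Genes were named by a rule. It gave the 12 largest rises and 12 largest falls among called genes without overlap between the groups and with an average of 5 CPM or more, up to 8 each way called in both states, and up to 6 each way in the interaction and between the mutants. From each list it gave up to 4 called members, or, where none was called, up to 2 with the highest level, with all members of lists of up to 10 genes, the MKK3 module and the expansins. The comparison, the rule and the 29 lists were chosen with earlier results of these data known. Genes outside the rule are said to be chosen after their values were seen. Windows before gene starts came from RefSeq TAIR10.1.

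The processing was varied in its test (DESeq2 1.42.0), scaling (size factors of DESeq2, upper quartile, library totals), genes (no filter; nuclear genes without those of ribosomal RNA), libraries (a model of only those compared; each left out in turn; mpk7_ko3 replicate 3 left out in both states), design (replicate number as a block) and threshold (0.01 for the adjusted p; 2-fold). Removal of the length and GC trend was chosen after seeing the data.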

Additional observations from a re-analysis of the deposited data

Results flagged for a closer look

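The imbibed log2 fold change of AT2G41650 differed from the dry one, with an interaction of -1.98 (SE 0.147, adjusted p = 2.14e-07, edgeR). It was called higher in dry mpk7_ko3 (3 of 3 libraries above Col-0) and lower in imbibed mpk7_ko3 (3 of 3 below). The span it shares with AT2G41640 is given with its values above, and the part of shared reads in the result was not tested.

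The other results listed for a closer look are differences between mpk7_ko3 and mkk3-1 in imbibed seeds, each tested directly (log2 of mpk7_ko3 over mkk3-1, edgeR) with no overlap between the 3 libraries of each mutant. On the lower side were IRT3 at -5.75 and the uncharacterised AT1G64795 at -5.42. IRT3 had 0.494, 0.72 and 0.0822 CPM in Col-0, 0.597, 0.384 and 0.632 CPM in mpk7_ko3 and 27.8, 28.3 and 32.2 CPM in mkk3-1, and AT1G64795 had 0.782, 0.96 and 0.616 CPM, 4.02, 1.79 and 0.672 CPM and 92.8, 89.8 and 95.5 CPM. The span of AT1G64795 shares 270 bases with AT1G64790 on the opposite strand. MPK7 itself was at -1.49. TT4, chalcone synthase, was at -1.99 (adjusted p = 0.0183), and its call was lost without mkk3-1 replicate 1 (0.12) or 3 (0.0819) or mpk7_ko3 replicate 2 (0.0862). AT2G01010, an 18S ribosomal RNA gene, was at -1.77 (adjusted p = 0.000997). AT7SL-1 was at -1.44 (adjusted p = 0.0407), a call lost without any library of these 6 but mpk7_ko3 replicate 3, with adjusted p up to 0.282. How reads with several matches were counted is not given in the sources used here.

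On the higher side, AT3G05945 was at 2.59, with 45.6, 45 and 43 CPM in Col-0. HEI10, a RING protein of meiotic crossover formation, was at 1.52, with 12.3, 13.2 and 15.4 CPM in Col-0, 13.6, 11.1 and 14.8 CPM in mpk7_ko3 and 5.4, 4.36 and 4.02 CPM in mkk3-1. EPR1 was at 1.23, the LEA protein gene AT4G36600 at 1.21 (adjusted p = 0.00233) and the uncharacterised AT3G63040 at 1.07 (adjusted p = 0.00711), the last lost without mpk7_ko3 replicate 1 (0.0708). GASA2, of a family of gibberellin-regulated peptides, was at 1.24 (adjusted p = 0.0346), a call lost without any library of these 6 but mpk7_ko3 replicate 3, with adjusted p up to 0.299. Against Col-0, none of these 6 genes was called in imbibed mpk7_ko3.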

How the results depend on the processing

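Of 2144 values of single genes under 28 alternatives, 1844 kept their direction and their side of the threshold, 290 kept the direction and were no longer past the threshold, 1 passed it newly (EXPA2) and 9 changed sign. Of 79 called genes that the naming rule gave, 54 kept the call without each library in turn and 25 lost it without at least 1. The sign changes were all of genes that were not called. Without 1 library, MPK1 ran from -0.12 to 0.0738, MPK2 from -0.16 to 0.0884, NCED6 from -0.39 to 0.39, GA3OX1 from -0.55 to 0.042 and ERF4 from -0.41 to 0.00297, and without mpk7_ko3 replicate 3 in both states NCED6 had -0.39 and GA3OX1 0.0423. The causes of the changes below were not tested, except that a stricter threshold by its construction gives fewer calls. Leaving out libraries moved counts in both directions.

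In the imbibed comparison of mpk7_ko3 with Col-0, 683 genes (352 higher, 331 lower) were called at an adjusted p below 0.01 and 113 (42 and 71) with a change of at least 2-fold. With library totals 556 genes were higher, while the lower count and the total stayed within 1.5 times. Leaving out 1 library gave 882 to 1415 genes, 463 to 733 higher and 401 to 694 lower. In dry seeds the count was 775 with DESeq2, 73 with only the libraries compared, 167 below 0.01, 57 with 2-fold and 150 to 578 without 1 library. In the interaction it was 58 with DESeq2, 36 with no filter, 7 without mpk7_ko3 replicate 3 in both states, 2 with the length and GC trend removed and 1 to 19 without 1 library. In mkk3-1 against Col-0 it was 2887 with only the libraries compared, 639 below 0.01, 203 with 2-fold and 763 to 1006 without 1 library. Between the mutants it was 226 with DESeq2, 233 with no filter, 459 without mpk7_ko3 replicate 3 in both states, 121 with the length and GC trend removed, 19 below 0.01, 22 with 2-fold and 18 to 202 without 1 library. Imbibed against dry seeds gave 6263 genes with 2-fold in mpk7_ko3 and 6758 in Col-0, and 12268 to 12514 and 12650 to 12738 without 1 library.

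For the lists, a change of at least 2-fold left 5 heat shock genes, 3 expansins, 0 ribosomal, 0 clock and 0 gibberellin signalling genes and 1 dormancy regulator, and an adjusted p below 0.01 left 0 gibberellin signalling genes. DESeq2 called 2 lower expansins. Without 1 library the ranges were 9 to 11 heat shock genes, 3 to 5 expansins, 16 to 20 ribosomal, 5 to 7 clock, 0 to 3 gibberellin signalling genes and 4 to 4 dormancy regulators.

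With the replicate number as a block the imbibed comparison gave 1669 genes and the interaction 2, or 22 with the block nested in genotype. Between the genotypes the numbers did not pair the imbibed libraries. Deviations of same-numbered libraries from their group means correlated at 0.108, -0.154 and -0.00232, so the block is given here only. Within mpk7_ko3, those of same-numbered dry and imbibed libraries correlated at 0.0435, 0.203 and 0.278, and other pairs ran from -0.26 to 0.106. In Col-0 the values were 0.0984, 0.0691 and 0.0479, and -0.0855 to 0.0147. The part of such links in the likeness of dry and imbibed results was not tested. Low counts limit what can be seen of genes such as GA3OX1, IRT3 or EXPA15, which had few reads in some libraries.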

Other observations

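The largest fitted differences between imbibed mpk7_ko3 and Col-0, whatever the level, were in genes with few reads, chosen after their values were seen and given as raw counts. AT4G10613 had 53, 83 and 53 reads in the imbibed Col-0 libraries and 3, 5 and 2 in imbibed mpk7_ko3 (log2 fold change -4.18, SE 0.5, adjusted p = 4.05e-05, edgeR). It had 24, 36 and 17 reads in dry Col-0, 1, 0 and 0 in dry mpk7_ko3, and 5, 2 and 5 in imbibed mkk3-1. AT1G75945 went the other way, with 13, 7 and 9 reads in imbibed Col-0 and 72, 218 and 40 in imbibed mpk7_ko3 (3.51, SE 0.609, adjusted p = 0.00104), and 281, 310 and 290 in imbibed mkk3-1. Both genes thus lay apart from Col-0 in the same direction in both mutants, which share these Col-0 libraries.

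ADF8, an actin-depolymerising factor, had 1, 2 and 1 reads in imbibed Col-0 and 15, 15 and 11 in imbibed mpk7_ko3 (adjusted p = 0.0135). AT3G42148 had 0 reads in each imbibed Col-0 library and 8, 5 and 6 in imbibed mpk7_ko3, and AT3G17130 had 0 in each and 7, 6 and 2.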
